A study of Mus musculus with 2 samples.

Results

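Myosin light chains are the small subunits that clasp the lever arm of the myosin heavy chain. The 10 genes described here (Myl1, Myl2, Myl3, Myl4, Myl6, Myl6b, Myl7, Myl9, Myl12a and Myl12b) were taken by symbol from the M21 release of the GENCODE mouse annotation, out of 55536 annotated genes, of which 22015 are nuclear protein-coding genes. They fill 11 rows of the gene table, because M21 gives the symbol Myl12b to a pair of gene identifiers. The tissue was the whole heart of mouse embryos at day 12.5. Its polyadenylated RNA was sequenced in 2 libraries, replicate 1 and replicate 2. Per the labels, both come from strain B6NCrl with no treatment or allele named, each from hearts of males and females combined, from 10 ng of RNA with ERCC spike-in RNAs added at 1000 times the single-cell amount. The labels give them separate biosamples but 1 donor identifier, so their spread may be partly technical. There is no second group, and the levels below are descriptions: an exact sign-flip test over 2 libraries cannot give a p-value under 0.5.

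Each myosin head carries an essential light chain, which stabilises the lever arm, and a regulatory light chain, whose phosphorylation near the amino terminus tunes the force and speed of the motor. Sarcomeric myosin, the motor of striated muscle, uses a set of light chains that is particular to muscle and, in the adult heart, to the chamber: Myl2 and Myl3 in the ventricle, Myl7 and Myl4 in the atrium. Non-muscle and smooth muscle myosins use Myl9, Myl12a or Myl12b as the regulatory chain and Myl6 or Myl6b as the essential chain. In smooth muscle and non-muscle cells the phosphorylation of the regulatory chain switches the motor on.

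The regulatory chains share the coding stretch around the serine that myosin light chain kinases phosphorylate, and it is shown because it holds the site through which these chains are regulated and because Myl12a and Myl12b cannot be told apart in it. The codon of that serine is in capitals. The bases are from GENCODE M21 transcripts (mm10 build), and each line gives coordinates that lie in 1 coding exon.
Myl2, chr5:122101773-122101814, plus strand: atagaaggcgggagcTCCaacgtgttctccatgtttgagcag
Myl7, chr11:5898450-5898491, minus strand: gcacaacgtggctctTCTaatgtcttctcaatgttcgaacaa
Myl9, chr2:156778587-156778628, plus strand: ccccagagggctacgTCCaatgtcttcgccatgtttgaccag
Myl12a, chr17:70996797-70996838, minus strand: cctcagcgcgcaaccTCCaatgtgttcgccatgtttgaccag
Myl12b, chr17:70977148-70977189, minus strand: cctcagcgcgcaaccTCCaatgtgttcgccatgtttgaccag
Counting the first methionine as residue 1, the serine is residue 15 of the Myl2 product, 23 of the Myl7 product and 20 of the Myl9, Myl12a and Myl12b products. The printed Myl12a and Myl12b stretches are the same in all 42 bases.

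The translated coding sequences fall into the same classes. The products of Myl12a and Myl12b are identical at 168 of 172 aligned positions, and those of Myl9 and Myl12a at 162 of 172. Myl2 and Myl7, the sarcomeric regulatory chains, are identical at 57.1% of alignment columns, and Myl3 and Myl4, the main sarcomeric essential chains, at 74.0%. Between a regulatory and an essential chain the identity ranged from 23.6% to 28.7% over 25 pairs. Among the essential chains the length sets a further difference. The products of Myl3 (204 residues), Myl4 (193) and Myl6b (207) carry an extension at the amino terminus that is rich in alanine, proline and lysine, which make up 82.5%, 67.5% and 67.5% of the first 40 residues. In the 151-residue product of Myl6 these residues make up 12.5% of the first 40.

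The sarcomeric regulatory chains led the family. Myl2 (ENSMUSG00000013936, chr5:122100951-122113472) had 5606 TPM in replicate 1 against 5954 TPM in replicate 2, where TPM is a transcript abundance divided by length and scaled to a fixed total. It ranked 5 of 22015 nuclear protein-coding genes by mean TPM, below the cardiac actin gene Actc1. Myl7 (ENSMUSG00000020469, chr11:5896637-5898782) stood at 4651 and 4306 TPM and ranked 10, next to the heavy chain gene Myh7. Myl2 was higher than Myl7 in both libraries, and the ranges did not overlap. The libraries moved in opposite directions for this pair: replicate 2 held more Myl2 and less Myl7. Myl2 therefore made up 54.7% of the sarcomeric regulatory transcripts in replicate 1 and 58.0% in replicate 2, while their sum was 10257 and 10260.1 TPM.

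Of the sarcomeric essential chains, Myl3 (ENSMUSG00000059741, chr9:110741861-110769798) stood at 2691 and 2813 TPM and Myl4 (ENSMUSG00000061086, chr11:104550663-104595753) at 1939 and 1926 TPM. They ranked 18 and 29. Myl1, named for the fast skeletal muscle in which it is the main essential chain, stood at 404 and 383 TPM (ENSMUSG00000061816, chr1:66924295-66945404), rank 281. Myl1 made up 7.76% ± 0.39 (SD, n = 2) of the sarcomeric essential transcripts, against 54.2% ± 1.04 for Myl3 and 38.1% ± 0.65 for Myl4. Each of these shares differed from the next by more than the spread of the libraries.

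Markers of skeletal muscle were low beside Myl1. Of 11 markers on that list, 5 reached 1 TPM in both libraries, and their summed level was 68.8 and 69.4 TPM. Tnni2, a fast skeletal troponin I gene, was the highest of them at 39.6 and 41.7 TPM. Mylpf, the regulatory chain of fast skeletal myosin, stood at 13.9 and 15.6 TPM. The master regulators Myog, Myod1 and Myf5 stood at 1.315, 0.31 and 0.045 TPM on average. Myl10, a further regulatory chain gene, had no count in either library. What part skeletal muscle RNA has in the Myl1 level was not tested.

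Among the non-muscle and smooth muscle chains, Myl9 (ENSMUSG00000067818, chr2:156775420-156781658) was the highest at 1349 and 1343 TPM, rank 49, beside the cardiac troponin gene Tnni3. Myl6 (ENSMUSG00000090841, chr10:128490860-128494145), the common essential chain of these myosins, stood at 999 and 963 TPM, rank 91. Myl12a (ENSMUSG00000024048, chr17:70993656-71002878) stood at 651 and 687 TPM, rank 144. Myl12b summed over both rows stood at 338 and 355 TPM. Of this sum, the row at the gene's own locus held 77.7 and 91.1 TPM. Myl12b-206, annotated as a readthrough transcript and coding for the same product as Myl12a, held 208.9 and 218.5 TPM. These levels come from whole hearts, and more cells of a type cannot be told apart from more RNA per cell. Defining genes of smooth muscle were uneven: Acta2, which embryonic cardiomyocytes also express, stood at 825.5 ± 38.9 TPM (SD, n = 2), while Myh11, the smooth muscle heavy chain, stood at 0.58 and 1.37 TPM. The smooth muscle list as a whole had 7 of 8 markers at 1 TPM or more, with summed levels of 1788.5 and 1867.2 TPM. Most of that sum came from Acta2, Des (392 and 405 TPM), Cnn1 (306 and 328 TPM) and Tagln (198 and 183 TPM). Lmod1 stood at 1.01 and 1.14 TPM. The sum is therefore not a measure of smooth muscle content.

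Myl6b (ENSMUSG00000039824, chr10:128494157-128498685) was the exception in level, with 3.16 and 2.35 TPM from 87 and 59 estimated reads. Its neighbour on the same strand, Myl6, starts 11 bases beyond its end, and stood 360-fold higher (a mean log2 ratio of 8.49 ± 0.27, SD, n = 2). On M4, an older release of the annotation, which lists the coding transcript of Myl6b but not Myl6b-202, Myl6b stood at 0.82 and 0.45 TPM and the log2 ratio was 10.61. Of the Myl6b signal, 88.9% was assigned to Myl6b-202, a transcript annotated as having a retained intron, and the coding transcript Myl6b-201 stood at 0.41 and 0.22 TPM. The coding form was thus under 1 TPM in both libraries.

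In all, 11 of 11 rows reached 1 TPM in both libraries, against 25.7% of all annotated genes and 56.6% of nuclear protein-coding genes. At 100 TPM or more stood 9 rows, against 2.58% of all annotated genes and 6.09% of nuclear protein-coding genes. At 1000 TPM or more stood 5 rows, against 84 of 22015 nuclear protein-coding genes. No neighbours in the order of levels had overlapping ranges. The narrowest step was Myl2 over Myl7, with a log2 ratio of 0.27 in replicate 1 and 0.47 in replicate 2. The Myl9 over Myl6 step was 0.43 and 0.48.

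**Figure D1:**
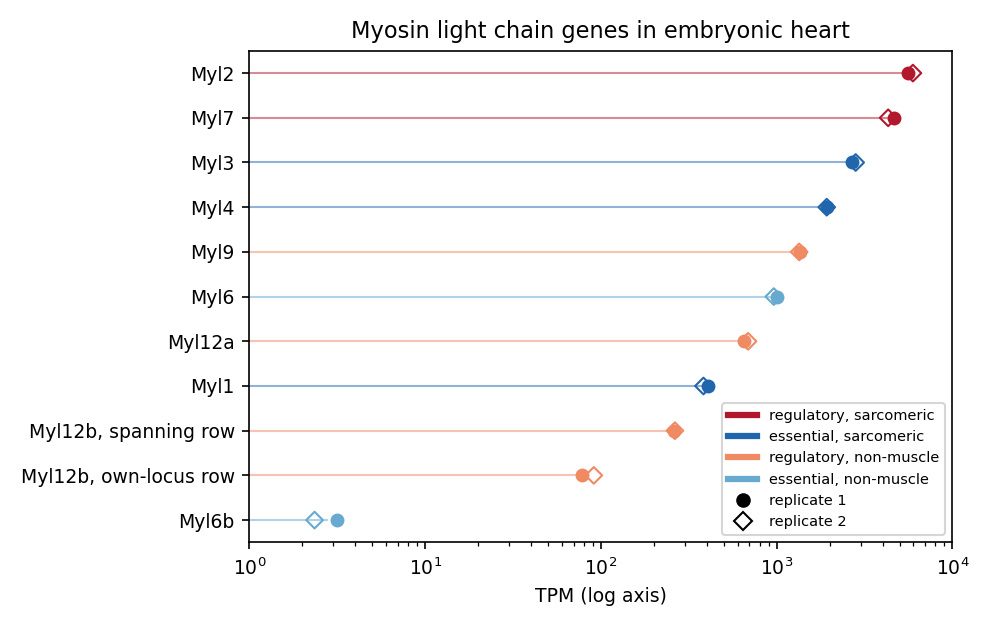
TPM of each of the 11 light chain gene rows on a log axis, with replicate 1 as a filled circle and replicate 2 as an open diamond, and colour for chain and kind of myosin. Myl2 and Myl7 lead at 4306 to 5954 TPM, and Myl6b lies lowest at 2.35 to 3.16 TPM.

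Light chain transcripts were set against those of the heavy chains they bind. Sarcomeric light chains summed to 15291 and 15382 TPM, a log2 ratio of 1.20 ± 0.02 (SD, n = 2) over the 9 sarcomeric heavy chain genes, whose sum of 6626 and 6771 TPM came almost whole from Myh7 (4371 and 4621 TPM) and Myh6 (2237 and 2131 TPM), with Myh7b at 18.1 ± 1.19 TPM (SD, n = 2). A heavy chain transcript is several times longer, so the deposited counts order them the other way. Sarcomeric light chains held 0.659% of all counts, and the sarcomeric heavy chains 1.65%. All 10 light chain genes together held 0.848%. Non-muscle light chains summed to 3340 and 3350.1 TPM, against 205 and 218 TPM for the 4 non-muscle and smooth heavy chain genes, of which Myh10 stood at 171 and 183 TPM and Myh9 at 32.8 ± 0.15 TPM (SD, n = 2). That log2 ratio, 3.98 ± 0.06, was larger than the sarcomeric one in both libraries. On M4 the sarcomeric ratio was 1.92 and the non-muscle ratio 3.84. With counts not divided by length they were -1.33 and 1.15. Regulatory exceeded essential transcripts in both kinds of myosin, by a log2 ratio of 1.01 ± 0.02 among sarcomeric chains and 1.26 ± 0.06 among the others. Sarcomeric light chains exceeded the others by 2.20 ± 0.003.

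**Figure D2:**
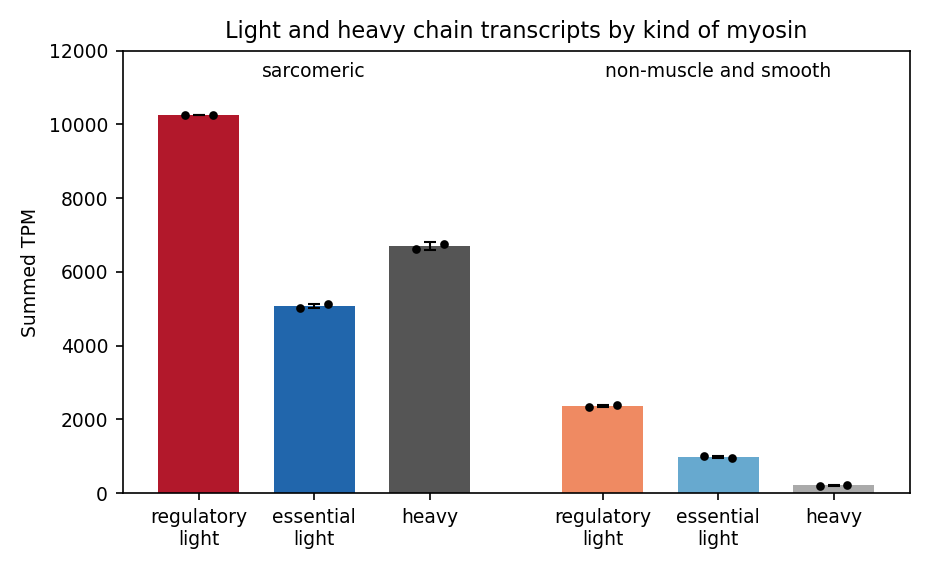
Summed TPM of regulatory light, essential light and heavy chain genes, for sarcomeric myosin on the left and non-muscle and smooth myosin on the right; bars are means of 2 libraries, error bars the SD and dots the libraries. Sarcomeric regulatory chains are highest at about 10257 TPM in replicate 1, and the non-muscle and smooth heavy chains lowest at 205 and 218 TPM.

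The transcript table shows which form of each gene the reads were assigned to. M21 lists 71 transcripts for the 11 rows, of which 51 reached 1 TPM in both libraries and 7 stood at 0 in both. A single transcript held at least 90% of the row in 6 rows, and the leading transcript was a coding one in 10 rows. Myl7 has only 1 listed transcript. Myl3-201 held 99.2% of Myl3, Myl9-201 98.2% of Myl9, Myl12a-208 95.7% of Myl12a and Myl2-201 94.4% of Myl2. Myl12a-208 differs from Myl12a-209 and Myl12a-210, which stood at 0 TPM, only in its first exon of 24 bases. The Myl12a share also leaves out Myl12b-206, which codes for the same product but belongs to another row. No transcript's share differed by more than 4.37 percentage points between the libraries.

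**Figure D3:**
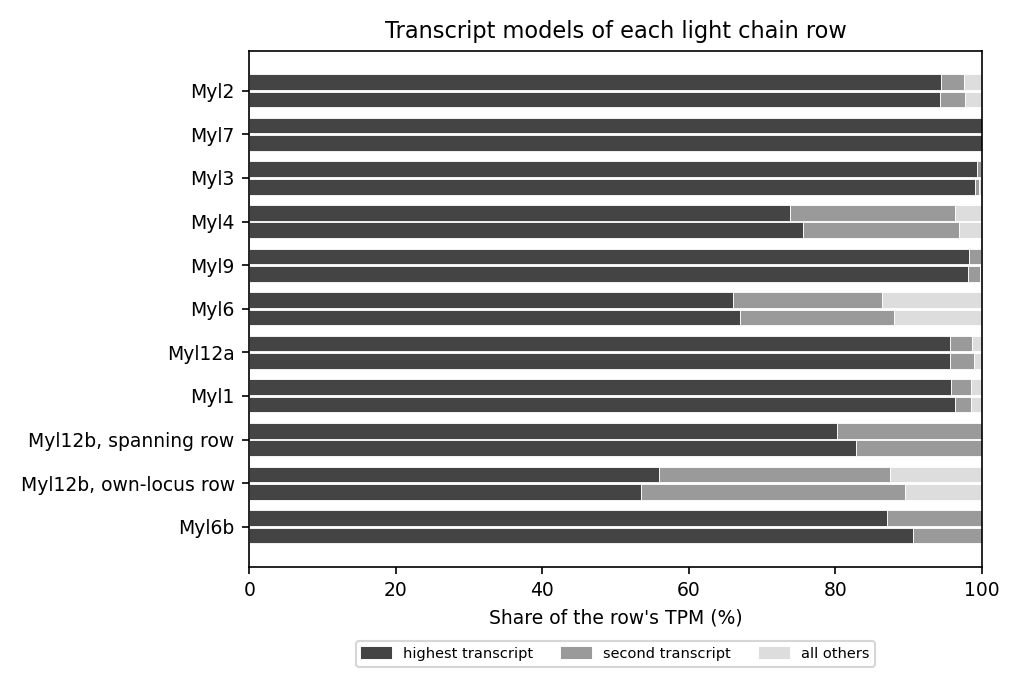
Share of each row's TPM held by its highest transcript (dark), its second transcript (grey) and all others (light), with replicate 1 as the upper and replicate 2 as the lower bar of each row. Myl7 and Myl3 rest on 1 transcript at 99.0% or more, while Myl6 and the own-locus row of Myl12b are divided.

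Myl1 was read from its internal start. Transcripts that begin within 1 kb of the Myl1-202 start held 99.5% ± 0.07 (SD, n = 2) of the Myl1 level, and those that begin near the distal start of Myl1-201, 9789 bases upstream, held 0.46% ± 0.07. Both starts read into the same later exons, and the first coding bases show how the products differ. Capitals mark bases outside the exons that the transcripts share.
Myl1-202: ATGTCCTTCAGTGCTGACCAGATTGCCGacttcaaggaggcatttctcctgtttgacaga
Myl1-201: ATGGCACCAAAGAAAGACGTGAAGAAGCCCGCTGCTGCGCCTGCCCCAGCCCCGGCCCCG
The product of Myl1-202 has 150 residues, of which the first 40 hold 15% alanine, proline and lysine. Myl1-201 codes for 188 residues with 70% of these residues in its first 40, the extension typical of long essential chains. Myl1-201 stood at 1.18 and 1.79 TPM, and Myl1-202 at 387 and 369 TPM. Among the sarcomeric essential chains of these hearts, Myl1 thus came almost wholly as the short form. The leading transcripts of Myl3 and Myl4 code for long forms, and that of Myl4 held 74.7% of its gene.

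Myl6 was read in a pair of coding forms that differ by an alternative exon of 45 bases (chr10:128491720-128491764), which replaces the last residues of the protein. Myl6-201, which skips the exon, stood at 660 and 645 TPM. Myl6-206, which includes it, stood at 202.5 and 202.2 TPM, 20.6% ± 0.51 of the gene (SD, n = 2). Transcripts that skip the exon, coding or not, together held 75.2% ± 0.47. The coding ends are shown from the last shared exon on, with bases after the splice in capitals and without the stop codon.
Myl6-201: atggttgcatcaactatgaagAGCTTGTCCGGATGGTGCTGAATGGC
Myl6-206: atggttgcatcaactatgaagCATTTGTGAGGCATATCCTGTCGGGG
The products have 151 residues each and are identical at 146 of them. Transcripts with a retained intron held 8.10% of Myl6. Most of that share is Myl6-212 (7.22%), which skips the exon and is already counted with the skipped forms.

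Myl4 had the most divided transcript set among the sarcomeric chains. Myl4-202 held 74.7% ± 1.29 (SD, n = 2), with 1430.1 and 1456 TPM. Myl4-204, annotated as having a retained intron, held 21.9% ± 0.90, with 438 and 410.1 TPM. It differs from Myl4-202 at its first exon, where 77 bases just before the second exon of Myl4-202 (chr11:104580325-104580401) take the place of a first exon of 294 bases. Transcripts that contain the end of that first exon held 76.6% ± 0.87 of Myl4. The products of the leading coding transcripts have 193 residues.

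Myl12a and Myl12b lie side by side on chromosome 17, and much of their coding sequence can hardly be told apart. Each has an exon of 162 bases that differs at 10 of them. The exon is shown for both genes because the differences lie mostly at its ends, so a read from its middle meets few of them; capitals mark the differing bases.
Myl12a, chr17:70996110-70996271, minus strand: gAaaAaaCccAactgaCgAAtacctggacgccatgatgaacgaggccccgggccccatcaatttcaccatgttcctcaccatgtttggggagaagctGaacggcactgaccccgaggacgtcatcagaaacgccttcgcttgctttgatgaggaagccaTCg
Myl12b, chr17:70975459-70975620, minus strand: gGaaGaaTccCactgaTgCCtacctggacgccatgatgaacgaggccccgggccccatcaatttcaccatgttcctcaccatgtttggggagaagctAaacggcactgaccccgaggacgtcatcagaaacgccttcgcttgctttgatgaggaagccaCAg
The second Myl12b identifier (ENSMUSG00000117098, chr17:70974119-71002208) starts in the first exon of Myl12a and ends in the last exon of Myl12b. Its transcripts, Myl12b-205 and Myl12b-206, are both annotated as readthrough transcripts. Myl12b-206, the leading transcript, takes 462 of its 636 bases from exons of Myl12a. Its translated product is identical to that of Myl12a at 172 of 172 positions. The spanning row stood at 260.2 and 264 TPM. The row at the gene's own locus (ENSMUSG00000034868, chr17:70973133-70990890) was lower, at 77.7 and 91.1 TPM. Within the own-locus row Myl12b-204, a coding transcript, held 54.7%, and retained-intron transcripts held 36.4%.

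**Figure D4:**
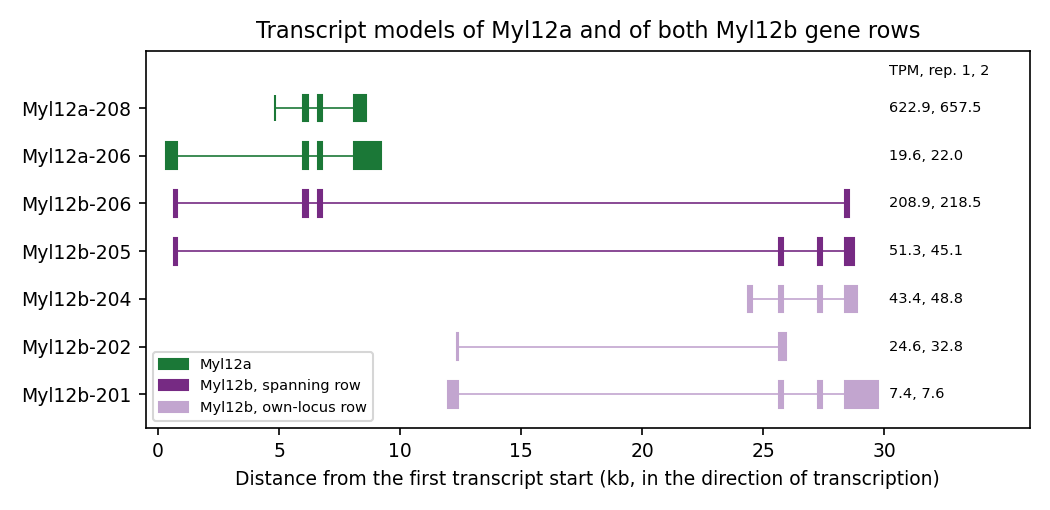
Exons (boxes) of the leading transcript models of Myl12a and of both Myl12b rows against the distance in kb from the first transcript start, with TPM in replicates 1 and 2 at the right. Myl12b-206 uses exons of Myl12a for all but its last exon, and stands at 208.9 and 218.5 TPM.

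The level of Myl12b depended on which models the reads were offered. On the older M4 annotation, which has no spanning row, Myl12b stood at 97.0 and 98.8 TPM and Myl12a at 688 and 727 TPM. The estimated reads of both genes together were nearly the same on both annotations, 18349 on M21 and 18342 on M4 in replicate 1, and 17460 and 17454 in replicate 2. The log2 ratio of Myl12a over Myl12b was 0.95 ± 0.006 (SD, n = 2) on M21 and 2.85 on M4, with Myl12a higher on both. The M21 ratio counts the spanning row as Myl12b.

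Windows of 100 bases, the fragment length implied by the effective lengths, were compared with every M21 transcript. In Myl12b-206, 94.2% of windows occur in another gene, in Myl12b-204 71.1%, and in Myl12a-208 44.6%; these counts include exons that the spanning row takes from either gene. In Myl6-201, 26.5% occur in predicted gene models with provisional Gm names, and in Myl1-202 13.1% occur in Mylf-ps, a related pseudogene. No window of Myl2, Myl3, Myl4, Myl7, Myl9 or Myl6b occurs elsewhere. The deposited posterior SD of the count, a measure of how uncertainly reads were divided, was highest for the same 3 rows, in another order: 5.06% and 5.22% of the count for the own-locus row, 2.55% and 2.89% for the spanning row and 0.43% and 0.46% for Myl12a. It was under 0.1% for every other row.

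RefSeq promoter windows (GRCm38.p6, 250 bases before to 50 after a start site) matched all 10 genes by symbol, with 12 windows. For Myl3, Myl6, Myl7 and Myl9 a window start lies within 50 bases of the start of the leading transcript; for Myl1, Myl2, Myl4, Myl6b, Myl12a and Myl12b the window belongs to a start that the leading transcript does not use. The CArG box, the element bound by serum response factor, was searched on both strands by name. It occurs in 4 of the 12 windows, against 1.63% of 32851 promoters. These windows belong to 4 of the 10 genes (Myl3, Myl6, Myl7 and Myl9). The Myl6 match lies in a second window, 866 bases from the start of Myl6-201. Stretches of the other promoters are shown because their genes are among the highest of the family; all bases lie upstream of the RefSeq start. In Myl7, capitals mark in order CATTCC, the CArG box and GATAA. In Myl3 and Myl9, capitals mark the CArG box with 10 bases on each side.
Myl7, chr11:5898783-5898882, minus strand: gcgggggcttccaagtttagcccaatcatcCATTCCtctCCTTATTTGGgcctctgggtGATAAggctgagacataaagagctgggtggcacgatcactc
Myl3, chr9:110763583-110763612, plus strand: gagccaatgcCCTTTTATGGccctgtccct
Myl9, chr2:156775293-156775322, plus strand: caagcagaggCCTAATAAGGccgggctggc
The box starts 61 bases before the start site in Myl7, 85 in Myl3 and 161 in Myl9. CATTCC occurs in 4 of the 12 windows (14.7% of all promoters), GATAA in 4 (25.4%) and CANNTG in 10, from 9 genes (72.3%). TATAAA occurs in 2 windows (13.6%) and TNAAGTG in 1 (11.5%). The MEF2 site, searched by name, has no match in these windows (3.19% of all promoters). No matches of these motifs overlap at the CArG boxes. A match is a run of letters only.

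Genes that act on the light chains are given by list. Of 11 kinases on the list, 9 reached 1 TPM in both libraries, led by Mylk3, the cardiac myosin light chain kinase, at 165 and 175 TPM. Mylk, the smooth muscle kinase, stood at 4.11 and 4.17 TPM and Mylk2, the skeletal one, at 0.04 and 0.09 TPM. Dapk3 stood at 51.5 ± 3.27 TPM, Cdc42bpb at 28.0 ± 2.50 TPM, Cit at 22.6 ± 0.37 TPM and Stk17b at 14.8 ± 1.59 TPM (SD, n = 2).

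Of 9 genes of the light chain phosphatase and its inhibitors, 8 reached 1 TPM in both libraries. The catalytic subunit gene Ppp1cb stood at 221 and 226 TPM and the targeting subunit gene Ppp1r12a at 85.2 and 91.8 TPM. Ppp1r12c stood at 40.6 ± 2.21 TPM, Ppp1r12b at 23.8 ± 0.78 TPM and Ppp1r16a at 22.3 ± 0.57 TPM (SD, n = 2). Of the inhibitors, Ppp1r14c stood at 173.5 and 169 TPM and Ppp1r14b at 155 and 151 TPM, while Ppp1r14a, the inhibitor typical of smooth muscle, stood at 10.6 ± 0.35 TPM (SD, n = 2). All 5 genes for myosin folding reached 10 TPM, with the striated muscle chaperone Unc45b at 155.5 and 158 TPM and its general relative Unc45a at 16.2 ± 0.32 TPM (SD, n = 2). Smyd1, a muscle methyltransferase that assists myosin assembly, stood at 88.7 and 85.9 TPM, and the chaperones Hsp90ab1 and Hsp90aa1 at 1024 ± 1.14 and 512 ± 9.86 TPM (SD, n = 2).

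Of 16 transcription factors and cofactors of actomyosin genes found in the table, all reached 1 TPM and 15 reached 10 TPM in both libraries. Nkx2-5 stood at 161 ± 5.72 TPM, Gata4 at 153 ± 5.47 TPM, Mef2c at 95.5 ± 5.06 TPM and Mef2a at 77.6 ± 6.22 TPM (SD, n = 2). Myocd, the cardiac and smooth muscle partner of serum response factor, stood at 57.6 ± 1.02 TPM, and Srf itself at 12.7 ± 1.36 TPM. Its other partners Mrtfa and Mrtfb stood at 15.2 ± 0.03 and 11.97 ± 0.12 TPM. The ventricular factors Irx4 and Hey2 stood at 50.1 ± 1.74 and 39.4 ± 3.01 TPM, Hand1 and Hand2 at 50.05 ± 2.16 and 14.6 ± 0.73 TPM, and Mef2d at 43.0 ± 1.56 TPM. Tbx5, higher in the atria, stood at 34.4 ± 1.53 TPM and Nr2f2, an atrial factor, at 21.2 ± 0.76 TPM.

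The libraries were compared with an exact conditional binomial test on rounded counts scaled by edgeR's TMM factors, with Benjamini-Hochberg adjustment over 17970 genes; it compares the libraries and covers counting error only. No light chain row passed both an adjusted p of 0.05 and a log2 ratio of 1 in either direction, against 1.57% of all genes tested. Without the ratio threshold 7 of 11 rows passed, 2 higher and 5 lower in replicate 2. The share was 10.0% of all genes and 20.1% of those counted 5000 times or more over both libraries. These shares are not matched for depth: the rows that passed ran from 6882 and 5923 counts (Myl1) to 78368 and 75408 (Myl2). At such depth this test passes small ratios, so the shares do not show that light chains differ more than other genes. The median absolute log2 ratio of the 11 rows was 0.06, against 0.10 over all genes tested and 0.04 over the deeply counted genes.

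The widest difference that passed was that of Myl7, with 56346 and 47180 counts before scaling and 54212 and 49114 after it. The log2 ratio of its scaled counts was -0.14 (95% interval -0.16 to -0.12, adjusted p = 1.6e-53, exact conditional binomial test). Myl2 was higher in replicate 2 by 0.06 and Myl3 by 0.03 on the log2 scale. Myl4 fell by 0.03, Myl9 by 0.04, Myl6 by 0.08 and Myl1 by 0.10. Myl12a (0.05), the own-locus row (0.12) and the spanning row (-0.03) of Myl12b and Myl6b (-0.44, 95% interval -0.95 to 0.05) did not pass.

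**Figure D5:**
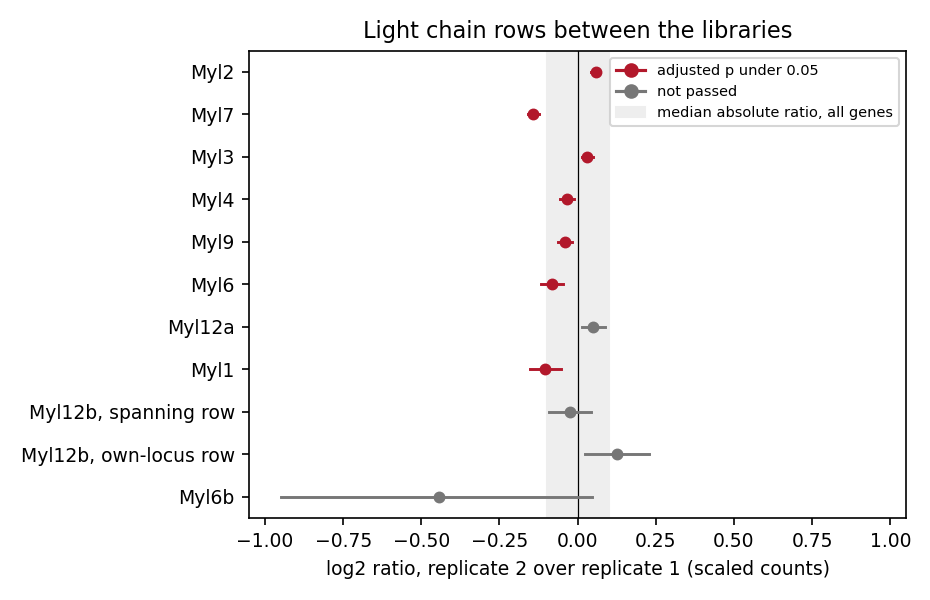
log2 ratio of scaled counts, replicate 2 over replicate 1, with exact 95% intervals for counting error; red rows have an adjusted p under 0.05 and the grey band is the median absolute ratio of all genes tested. Myl7 lies at -0.14 and Myl2 at 0.06, and Myl6b has the widest interval, -0.95 to 0.05.

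Chamber markers beside these ratios were as follows. All 8 genes on the atrial list were detected and none was called. Their median log2 ratio was -0.17. Sln stood at -0.58, Stard10 at -0.32, Nr2f1 at -0.30, Kcnj5 at -0.27 and Nr2f2 at -0.08. Bmp10 stood at 0.10, Nppa at 0.03 and Tbx5 at 0.006. Nr2f1, Nr2f2, Bmp10 and Tbx5 did not pass an adjusted p of 0.05. The summed level of the atrial list was 4574 and 4742 TPM, of which Nppa alone held 4453 and 4632 TPM. That sum thus follows Nppa, and whole hearts do not show which chamber its RNA came from. All 7 ventricular markers were detected and none was called. Their median was 0.05, and their summed level 5134 and 5427 TPM, of which Myh7 alone held 4371 and 4621 TPM. The part of chamber content in the ratios of Myl7 and Myl2 was not tested. The ratios of the cardiac heavy chain genes passed the adjusted p as well, in the same exact test, with Myh6 at -0.11 (adjusted p = 2.7e-95), Myh7 at 0.04 (adjusted p = 4.2e-38) and Myh7b at 0.16 (adjusted p = 0.036); none was called. Of the low heavy chain genes, Myh11 was called higher in replicate 2 (log2 ratio 1.23) and Myh14 lower by count (-1.33) although its TPM was 0.46 and 0.80.

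Across the series, the libraries held 35520161 and 32577548 estimated reads, of which spike-ins took 3.58% and 3.63%. Replicate 2 was called lower for 9 of the 10 hepatocyte markers, with summed levels of 177 and 38.6 TPM. Erythroid markers summed to 34210 and 30657 TPM. The part of these cells in the light chain ratios was not tested.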

How the data were processed

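For each library the authors deposited tables per gene and per transcript on annotations M21 and M4 (mm10), per the labels and the file headers. The deposited expected counts are estimated reads, shared out where a read fits several places; they were rounded for tests. The deposited TPM values are abundances per effective length with a fixed sum over all rows, spike-ins included. The deposited FPKM values and the authors' percent of each gene held by an isoform were not used for results. The layout is that of RSEM tables; which aligner, counter or strand setting was used is not given in the sources used here, so overlapping and antisense genes cannot be separated. All 55536 gene identifiers of M21 matched the reference annotation, and 26248 rows with unnamed numeric identifiers were left out.

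Members, context lists and markers were chosen with earlier results of these data known. Named were all members, context genes of at least 10 TPM in both libraries or called, and the protein-coding genes next to a member in mean TPM, a few of which are given. Some genes that this rule names are not reported here. Others named to show a list's low members were chosen after their values were seen. Mean and SD are over 2 libraries. A gene was detected at 1 TPM or more in both libraries. The library test needed a summed count of at least 20 and added 0.5 to scaled counts for ratios (edgeR 4.0.16, SciPy 1.17.1, R 4.3.3). It was tried on libraries of 17986 genes simulated with counting error only. There it recovered 100% of 200 genes with a log2 fold of 2, with 2 false calls. That simulation does not give the rate of false calls in the real libraries. The chi-square per degree of freedom between the libraries was 4.01 over 20085 genes, so they differ by more than sampling noise. Coding sequences were translated from M21 models and aligned with Biopython 1.88 (BLOSUM62). The alternatives tried were annotation M4, posterior mean values, TPM over nuclear genes, other thresholds and pseudocounts, counts not divided by length, other scalings (DESeq2 1.42.0 size factors, spike-ins, totals), other minimum counts and each library alone.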

Additional observations from a re-analysis of the deposited data

How the results depend on the processing

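No paired analysis was possible because the series has a single group. The counts of members that were detected (9 of 10 genes on M4, where Myl6b stood at 0.64 TPM), called, or held by a single transcript stayed within 1.5 times the main count under every alternative run. Counts not divided by length moved the mean log2 ratio of Myl7 over Myl2 to -0.58, of Myl4 over Myl3 to -0.62, of Myl12a over Myl12b to 1.34 and of sarcomeric regulatory over essential chains to 0.42, and reversed that of sarcomeric light over heavy chains to -1.33, because heavy chain transcripts are longer. On M4, Myl12a over Myl12b was 2.85, Myl6 over Myl6b 10.61 and sarcomeric light over heavy chains 1.92, and Myl6-201 was the only listed form of Myl6. Between libraries, Myl12a passed the adjusted p under median-of-ratios or total scaling, a minimum count of 100 and M4; Myl3 did not under spike-in scaling, and Myl4 and Myl9 did not under total scaling. Leaving out either library left each order of the pairs in place. Levels of Myl6b rest on 87 and 59 reads, which limits what can be said of its forms.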
